A study of Mus musculus with 8 samples.

Results

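The genes of the hippocampal GABA receptor subunits Gabra2 and Gabra5 and of the postsynaptic scaffold gephyrin (Gphn) were examined in whole-genome bisulfite sequencing of mice lacking DNA glycosylases. These 3 genes were picked from the lists of differentially methylated regions because each has a region there, so their levels are given as a description and not as a test. They account for 5 of the 9329 region entries and for 3 of the 4901 genes with a region in any table. Hippocampal DNA came from male mice of 6 months on the C57BL/6N background. The mice lacked the glycosylase Mutyh (Mutyh-/-), the glycosylase Ogg1 (Ogg1-/-) or both (DKO, bred by crossing the single knockouts), and the controls were wild type (WT) animals of that background. Each of the 4 genotypes had 2 libraries, 8 in all, and no treatment was applied. No Cre driver or targeted cell type is named for the knockouts, and the whole hippocampus was used, so a change in methylation within a cell type and a change in the mix of cell types cannot be told apart. It is not stated if both libraries of a genotype are from different animals, and the spread between them may be technical.

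GABA is the main inhibitory transmitter of the brain. Its fast receptor, GABA-A, is a chloride channel of 5 subunits, usually alpha, beta and gamma, and the alpha subunit helps to set where the receptor sits and how it responds. Gabra2 encodes the alpha2 subunit, which is found mainly at synapses, and Gabra5 encodes alpha5, which is abundant in the hippocampus, sits largely outside synapses and is known for its part in learning and memory. Gephyrin forms the lattice beneath inhibitory synapses that holds GABA-A and glycine receptors in place, and in other tissues it is an enzyme of molybdenum cofactor synthesis. Cytosine methylation in the CG context is usually low at active CpG-rich promoters and high across gene bodies.

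Bisulfite treatment changes unmethylated cytosines and leaves methylated ones, so the methylated bases of interest are the CpG sites of each region. Stretches of the regions at Gabra5 and Gabra2 are shown to make visible how unevenly these sites lie. The sequences come from the RefSeq annotated assembly GRCm38.p6, run 5′ to 3′ along the minus strand on which both genes are transcribed, and carry each CpG in capitals. The Gabra5 promoter stretch is chr7:57510104-57510309, just before the first exons in the region, and holds 5 CpG sites in 206 bases. The Gabra5 intron stretch is chr7:57509010-57509178, at the downstream end of the same region, and holds 17 CpG sites in 169 bases. The Gabra2 stretch is chr5:70961802-70962056, the last 255 bases of the coding sequence, and holds 6 CpG sites.
Gabra5 promoter: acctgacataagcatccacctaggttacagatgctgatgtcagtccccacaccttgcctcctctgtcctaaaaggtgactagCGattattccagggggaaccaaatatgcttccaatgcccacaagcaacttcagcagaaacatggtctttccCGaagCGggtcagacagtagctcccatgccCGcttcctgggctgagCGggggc
Gabra5 intron: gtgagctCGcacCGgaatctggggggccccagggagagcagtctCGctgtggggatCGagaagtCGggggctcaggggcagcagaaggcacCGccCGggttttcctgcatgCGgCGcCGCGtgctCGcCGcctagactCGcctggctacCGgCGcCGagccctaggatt
Gabra2 end of coding sequence: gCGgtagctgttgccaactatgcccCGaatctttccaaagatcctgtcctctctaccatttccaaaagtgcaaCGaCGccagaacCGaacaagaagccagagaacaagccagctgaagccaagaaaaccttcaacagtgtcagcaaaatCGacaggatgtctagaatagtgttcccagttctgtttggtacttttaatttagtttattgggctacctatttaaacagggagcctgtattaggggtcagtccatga

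Gabra5 had less CG methylation around its transcription start site (TSS) in all 3 knockouts than in WT, by 18.75 to 23.5 percentage points. It was the only one of the 3 genes with a region in more than 1 knockout. A TSS region runs from 1 kb before to 1 kb after the start, and a level is the median methylation of the cytosines kept in the region, averaged over the pairs of libraries in which a library was read. It is not known whether sites without methylation were kept, so a level may not stand for all cytosines of its region. The region is chr7:57509010-57511009 on the minus strand of GRCm38.

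In Mutyh-/- hippocampus the Gabra5 region stood at 35.5% and 41.5%, against 58.5% and 61% in WT. The means were 38.5% ± 4.24 in Mutyh-/- and 59.75% ± 1.77 in WT (SD, n = 2 each), a difference of -21.25 points. In Ogg1-/- hippocampus it stood at 36% and 33.5%, against 58.5% and 58% in WT. The Ogg1-/- libraries were thus close to each other, as were those of WT. Their mean was 34.75% ± 1.77, against 58.25% ± 0.354 in WT (SD, n = 2 each), a difference of -23.5 points. In DKO hippocampus the region stood at 40.5% and 45%, against 61% and 62% in WT. The mean was 42.75% ± 3.18 in DKO and 61.5% ± 0.707 in WT (SD, n = 2 each), a difference of -18.75 points. Knockout and WT libraries did not overlap in any of the 3 comparisons, with the closest libraries 17 points apart in the Mutyh-/- table, 22 in that of Ogg1-/- and 16 in that of DKO. A region was deposited only where all 4 library pairs moved the same way, so the choice of regions itself favours such a gap.

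The same 2 WT libraries served all 3 comparisons, so the 3 losses at Gabra5 are not independent of each other. Over the 3 tables the knockout libraries lay between 33.5% and 45% and the WT libraries between 58% and 62%. The order of the knockout means was Ogg1-/-, Mutyh-/- and DKO from low to high. In the same order of tables the WT libraries averaged 58.25%, 59.75% and 61.5%. The part that this shift between tables plays in the order of the knockouts was not tested. The libraries of neighbours in this order overlapped (36% in Ogg1-/- and 35.5% in Mutyh-/-, 41.5% in Mutyh-/- and 40.5% in DKO), while the highest Ogg1-/- library was below the lowest DKO library. The knockouts were not compared with each other by the study, and these differences between them were not tested. With 2 libraries a group, an exact two-sided permutation test cannot give a p under 0.333.

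**Figure D1:**
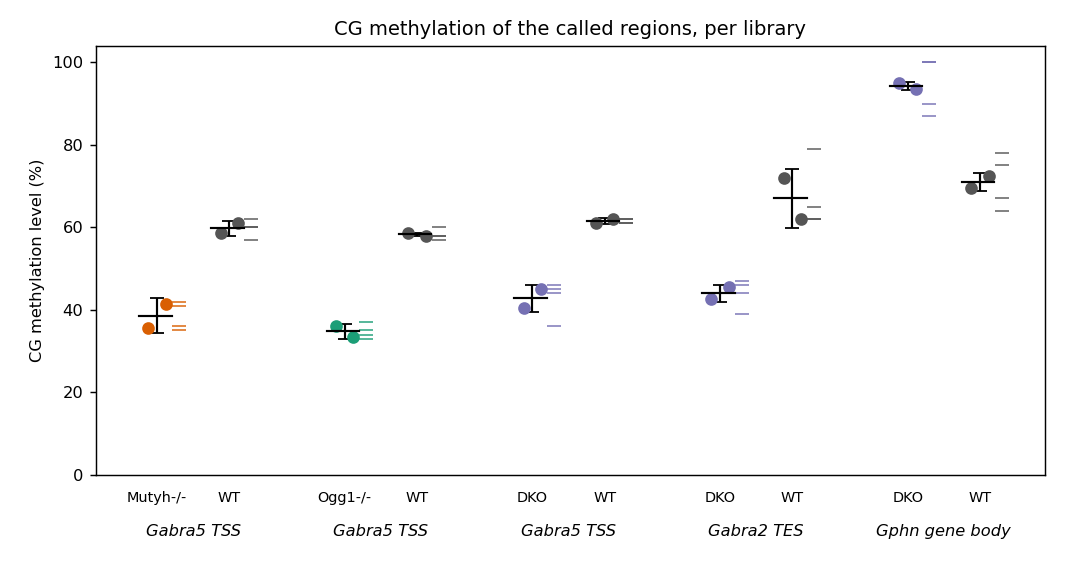
CG methylation level in percent (vertical axis) of each region of Gabra5, Gabra2 and Gphn, with the knockout left of WT in each pair. Dots are the 2 libraries, black bars their mean with SD, and short dashes the 4 readings per library pair. Knockout dots lie below WT at Gabra5 (33.5% to 45%, against 58% to 62%) and Gabra2, and above WT at Gphn.

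Each library was read once beside each library of the other genotype, and a region could be read from slightly different cytosines in each pair. At Gabra5 the 4 pairs gave 35%, 36%, 41% and 42% in Mutyh-/-, against 60%, 62%, 57% and 60% in WT. They gave 37%, 35%, 34% and 33% in Ogg1-/-, against 60%, 58%, 57% and 58% in WT, so that Ogg1-/- had the tightest set of readings. In DKO the pairs gave 45%, 36%, 44% and 46%, against 61%, 62%, 61% and 62% in WT. The first DKO library was thus read 9 points apart in its 2 pairs, while each WT library was read at the same value in both. The median gap between readings of a library was 3.5 points for knockout and 4 points for WT over all 1730 CG regions of the DKO table.

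The size of the Gabra5 loss ranked differently among the TSS losses of each table, and in DKO it was among the smaller ones. Among Mutyh-/- TSS losses, 180 of 329 were larger (54.7%). The share was 72 of 284 for Ogg1-/- (25.4%) and 293 of 323 for DKO (90.7%). A TSS loss was listed for 1.28% of 21887 protein-coding genes in the Mutyh-/- table, 1.12% in that of Ogg1-/- and 1.29% in that of DKO. Since Gabra5 was chosen for being among them, these shares are its background and carry no test. The deposit required a relative ratio beyond 0.1, the difference in level over the mean level on the deposited scale. The smallest over the 4 pairs at Gabra5 was 0.107 in size for Mutyh-/-, 0.155 for Ogg1-/- and 0.104 for DKO, so the DKO region lay just inside the limit.

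The Gabra5 region was CpG-rich, unlike most TSS regions in the tables. It held 147 CpG sites, or 73.5 per kb, against a median of 26.5 per kb over the 901 TSS regions with a CG call in any knockout, and 97% of those regions had fewer per kb. Its GC content was 61.4%, and its ratio of observed to expected CpG was 0.784, against a median of 0.392. The sites were placed on one side: 120 lay downstream of the start and 27 upstream of it. The stretches printed above show the contrast, with 17 sites in the intron and 5 in a longer run of promoter. RefSeq models NM_176942.4 and NM_001362162.1 start at the centre of the region, other models start within it at other first exons, and 1 predicted model, XM_030241988.1, starts far upstream of the region. Of the 2000 bp, 824 bp lay in untranslated exons, none was coding, and 58.8% held no exon. A level for single CpG sites was not used here, so which of the 147 sites lost methylation is not known from these values.

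**Figure D2:**
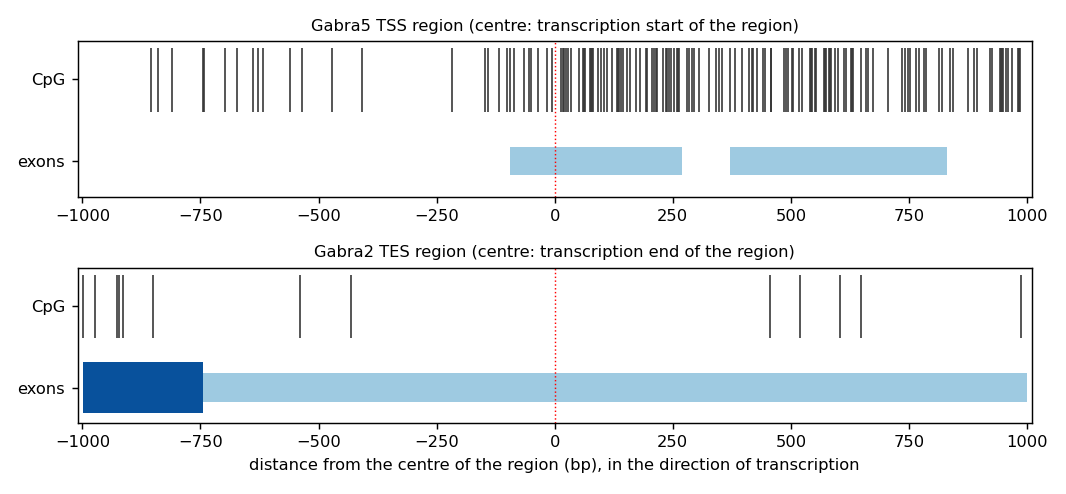
CpG sites (upper ticks) and RefSeq exons (lower bars, with the coding part dark and tall) of the Gabra5 TSS region and the Gabra2 transcription end region, by distance in bp from the centre in the direction of transcription. At Gabra5 120 of 147 sites lie downstream of the start, while the Gabra2 region holds 13 sites, 6 of them in the coding part.

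Gabra2 had less CG methylation at its transcription end site (TES) in DKO than in WT, by 23 points. It had no region in Mutyh-/- or Ogg1-/-, and the difference between genotypes was not tested. The region is chr5:70960057-70962056 on the minus strand, from 1 kb before to 1 kb after the annotated end. It stood at 42.5% and 45.5% in DKO, against 72% and 62% in WT. The means were 44% ± 2.12 in DKO and 67% ± 7.07 in WT (SD, n = 2 each). The libraries did not overlap, and the closest were 16.5 points apart, a gap that the choice of regions favours.

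The Gabra2 difference was the least even of the 5 regions, with 1 WT library read at widely different levels. The first WT library was read at 65% in 1 pair and 79% in the other, while the second was read at 62% in both. The 4 pairs gave 46%, 39%, 47% and 44% in DKO, against 65%, 62%, 79% and 62% in WT, with differences of -19, -23, -32 and -18 points. The WT SD of 7.07 exceeded the median of 2.47 over the 203 DKO losses of this kind. Larger TES losses were listed for 65 of those 203 regions (32%), and 0.868% of the 21887 protein-coding genes had a TES loss in DKO.

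Few CpG sites lay behind the Gabra2 value. The region held 13, or 6.5 per kb, against a median of 15.5 per kb over the 633 TES regions with a CG call, and 0.474% of these had fewer per kb. In the RefSeq annotation the whole region lay within the last exon of Gabra2, with 255 bp of coding sequence, printed above, and 1745 bp of untranslated sequence. Of the 13 sites, 6 were in the coding part and 7 in the untranslated part. RefSeq places the ends of the Gabra2 transcripts 1060 and 2665 bp beyond the centre of the region, so by that annotation the region was within the gene and not across its end.

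Gphn had more CG methylation across its gene body in DKO than in WT, by 23.25 points. This was the only gain among the 5 regions, and Gphn had no region in Mutyh-/- or Ogg1-/-. The region is chr12:78227655-78683769 on the plus strand, 456.115 kb of a gene of 467.448 kb, and 98.8% of it held no exon. It stood at 95% and 93.5% in DKO, against 69.5% and 72.5% in WT. The means were 94.25% ± 1.06 in DKO and 71% ± 2.12 in WT (SD, n = 2 each). The libraries did not overlap, and the closest were 21 points apart, a gap that the choice of regions favours.

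The 4 pairs gave Gphn 90%, 100%, 100% and 87% in DKO, against 64%, 78%, 75% and 67% in WT. The median of the sites kept was therefore at 100% in 2 of the 4 DKO readings, where the scale ends. Which sites of the gene body were kept in each pair is not known. Readings of the same library differed by 10 and 13 points in DKO, against 11 and 11 in WT, which was above the table's medians of 3.5 and 4. The 2 pairs with DKO at 100% were also those with the higher WT readings, 78% and 75%. Such a ceiling was common, since 300 of the 637 gene-body gains in DKO (47.1%) had a DKO reading at 100%. Larger gains were listed for 126 of the 637 (19.8%), and 2.28% of the 21887 protein-coding genes had a gene-body gain in DKO.

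The Gphn gain had the direction of nearly all long gene bodies listed in DKO. Of the 234 gene-body regions of 400 kb or more, 223 were gains (95.3%), against 414 of the 879 shorter ones (47.1%). Of the 195 gene-body regions longer than that of Gphn, 189 were gains and 6 were losses. These counts are of listed regions, and some genes, such as Pcdh15 and Dpp6, have several that overlap. The Gphn body had 4.48 CpG sites per kb, against a median of 8.75 over 2120 gene bodies with a CG call, and 2.08% had fewer. The part that length or CpG content plays in the Gphn value was not tested.

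**Figure D3:**
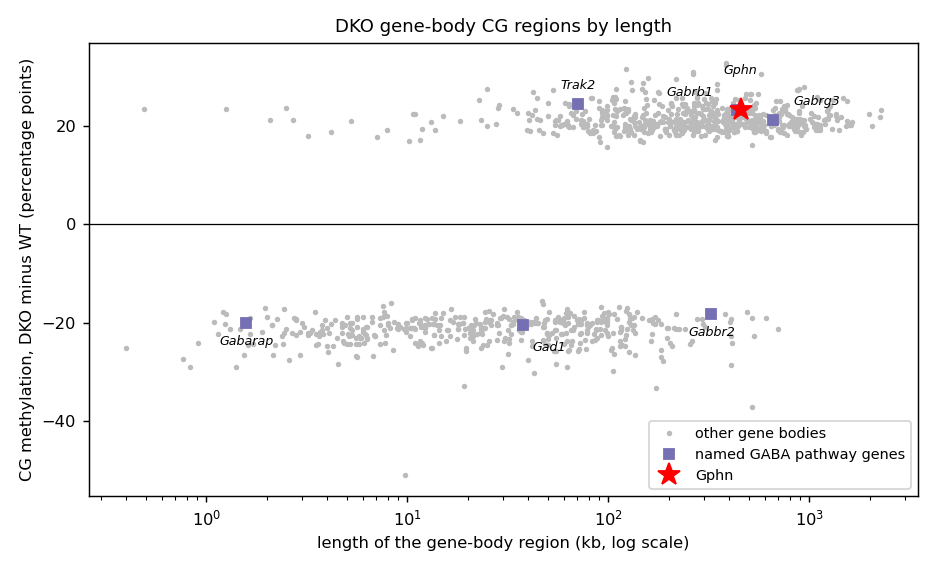
DKO minus WT difference in CG methylation in percentage points (vertical axis) of each DKO gene-body region against its length in kb (log scale). Grey points are regions of other genes, violet squares those of named genes of the GABA pathway and the red star that of Gphn. It lies among the long regions, where 223 of 234 at 400 kb or more are gains, some genes being listed more than once. Values near 0 are missing because only regions past the deposit threshold were listed.

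None of the 3 genes had a region in the CHH or CHG context, where H is any base but G. Of the 81 combinations of gene, knockout, context and feature, 5 had a region and 76 had none. A missing region means that at least 1 of the 4 pairs did not pass the threshold or that too few cytosines were covered, and the 2 cases cannot be told apart, so no level can be given for it.

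Other genes of inhibitory transmission were taken from a list of 70 genes in 8 groups, which includes the 3 genes. In Mutyh-/-, 8 of the 70 had a CG region (11.4%), against 6.28% of protein-coding genes. There were 10 in Ogg1-/- (14.3%, against 5.26%) and 12 in DKO (17.1%, against 6.33%). Without Gabra2, Gabra5 and Gphn, which were chosen for having one, the counts were 7, 9 and 9 of 67. The list itself was drawn up with earlier results of these data known. The shares with or without the 3 genes are thus a description and carry no test. The directions were mixed. Mutyh-/- had 1 gain and 7 losses, where 2.19% of protein-coding genes had a gain and 4.18% a loss. Ogg1-/- had 5 gains and 5 losses, where 2.1% had a gain and 3.21% a loss. DKO had 5 gains and 7 losses, where 2.63% had a gain and 3.8% a loss. The gains were all in gene bodies, and every CG region of the list at a TSS or TES was a loss. Losses also made up 87.3% to 89% of TSS and 79.9% to 84.9% of TES CG regions over all genes, so this direction is not particular to the list. The gene bodies of the 8 genes that gained were 66.1 to 661 kb long with a median of 176 kb, and those of the 8 that lost 1.58 to 326 kb with a median of 35.4 kb.

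Among the 19 GABA-A receptor subunit genes, 5 had a CG region in at least 1 knockout (26.3%), and 13 had no region in any context. The share over all protein-coding genes was 12.8%. Gabra2 and Gabra5 are among the 5 and were chosen for being listed, which raises the subunit share by design, so it carries no test. Of the other 17 subunit genes, 3 were listed for CG in DKO and 1 in each single knockout. Gabra2 and Gabra5 were the only ones of 6 alpha subunit genes with a region, and both were losses at gene ends. Gabrb1 and Gabrg3, a beta and a gamma subunit gene, had higher methylation in their gene bodies. Gabrg3, the gamma3 subunit gene, neighbours Gabra5 on chromosome 7, with its region ending 123 kb from the Gabra5 region. It stood at 93% and 87.5% in DKO, against 70.5% and 67.5% in WT. Gabrg3 was also listed in Mutyh-/-, at 89% and 91%, against 73.5% and 55% in WT. Neighbouring genes on chromosome 7 were thus listed with opposite signs in Mutyh-/- and DKO, a loss at the Gabra5 start and a gain along Gabrg3.

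The chromosome 5 cluster of Gabra2 had a like arrangement in DKO, a loss at a TES and a gain along a long gene body. Over all genes, 79.9% of the DKO TES CG regions were losses as well. Gabrb1, the beta1 subunit gene, lies 739 kb from the Gabra2 region and stood at 56% and 65.5% in DKO, against 29% and 46% in WT. It was also listed in Ogg1-/-, at 89% and 76.5%, against 65% and 60% in WT. Within each table the knockout and WT libraries did not overlap, which the choice of regions favours. The same WT libraries averaged 37.5% in the DKO table and 62.5% in the Ogg1-/- table, a shift of 25 points that exceeded the DKO gain of 23.25 points. The DKO mean of 60.75% was below the WT mean of the Ogg1-/- table. The median shift over the 506 CG regions listed in both tables was 3.75 points, so the Gabrb1 gain in DKO depends on which table's WT readings are used. Gabrg1 and Gabra4, the other members of this cluster, had no region.

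Genes around gephyrin at the inhibitory synapse were listed in both directions. Nlgn2, the adhesion protein neuroligin 2 of inhibitory synapses, lost at its transcription end in Ogg1-/-, with 62.5% and 60%, against 82% and 87.5% in WT. Gabarap, which binds GABA-A receptors and gephyrin, averaged 48.75% in DKO and 68.75% in WT across its short gene body. The trafficking adaptor genes Trak1 and Trak2 were listed with opposite signs in Ogg1-/-: Trak1 averaged 51.5% in Ogg1-/- and 72% in WT, and Trak2 76.75% in Ogg1-/- and 55.5% in WT. Iqsec3, an inhibitory synapse exchange factor that binds gephyrin, averaged 55% in Ogg1-/- and 75.25% in WT.

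Genes for making and removing GABA were mostly losses. Gad1, which makes GABA, averaged 43% ± 2.83 in Mutyh-/- and 62.75% ± 1.77 in WT, and 48% ± 2.83 in DKO and 68.5% ± 0.707 in WT (SD, n = 2 each). Slc6a13, a GABA transporter gene, averaged 42.75% in DKO and 64% in WT at its TSS. Slc6a11, a GABA transporter gene of astrocytes, went the other way in Ogg1-/-, with 80.75% in Ogg1-/- and 60% in WT. The metabotropic GABA-B receptor genes lost in their gene bodies. Gabbr1 stood at 43% and 25% in Mutyh-/-, against 59.5% and 44% in WT, and at 39.5% and 26% in Ogg1-/-, against 55% and 43% in WT. The libraries of Gabbr1 were far apart within each genotype. In both comparisons the closest knockout and WT libraries were nearer to each other than the libraries of either genotype. They stood at 43% and 44% for Mutyh-/- and WT, and at 39.5% and 43% for Ogg1-/- and WT. Gabbr2 averaged 64% in DKO and 82.25% in WT.

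**Figure D4:**
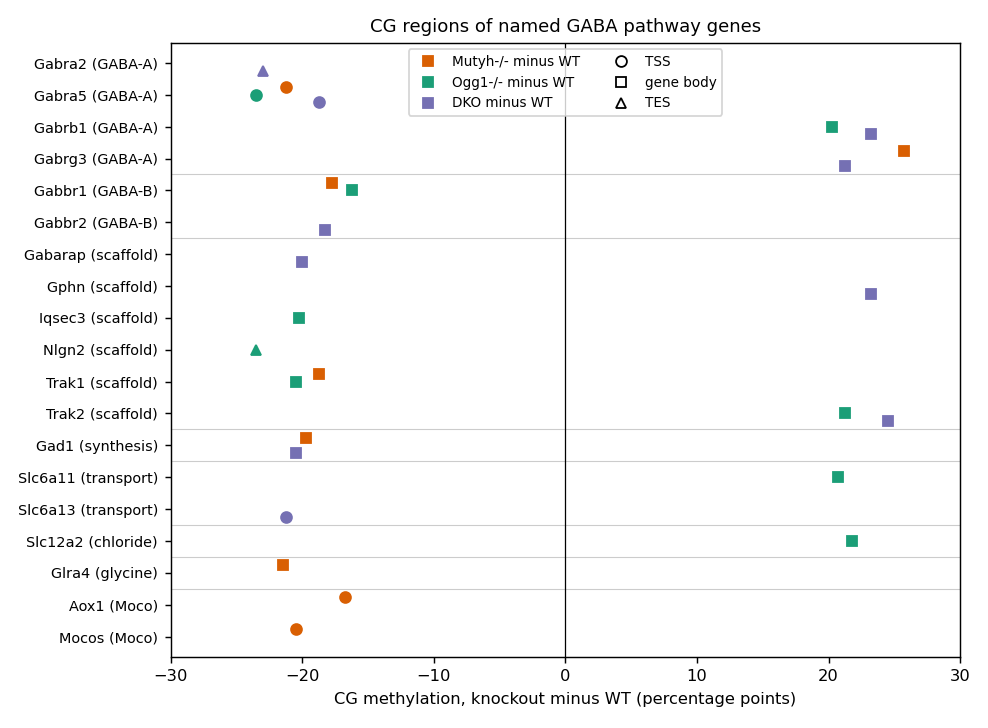
Knockout minus WT difference in CG methylation in percentage points (horizontal axis) for 19 genes of the GABA pathway list with a CG region, grouped by role. Colour gives the knockout and shape the feature (circle TSS, square gene body, triangle TES). All TSS and TES regions are on the negative side, as are 87.3% to 89% of TSS and 79.9% to 84.9% of TES regions over all genes.

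In the CHH context the list had regions for 4 of 70 genes in Mutyh-/- (5.71%), against 5.5% of protein-coding genes. It had 7 in Ogg1-/- (10%, against 7.02%) and 2 in DKO (2.86%, against 3.17%). With the exception of Iqsec3 in Mutyh-/-, all were losses. Gabrg3 had a CHH loss beside its CG gain, with 23% and 21% in DKO, against 39.5% and 43.5% in WT, and 19.5% and 31% in Mutyh-/-, against 46.5% and 40% in WT. These are medians of the cytosines kept and cannot be taken as the level of all CHH sites of the gene. CHH losses made up 97.4% to 99.8% of the CHH gene-body regions of every table, so this direction is that of nearly all listed CHH gene-body regions. Most genes had no CHH region.

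The genes whose levels were most like those of each region were sought among regions of the same context and feature in the same tables. For Gabra5, 12 other genes had a TSS region in all 3 knockouts, and Camk1d, Amn and Amotl1 were nearest, with mean absolute differences of 2.5, 2.58 and 4.75 points over 12 levels. For Gabra2, the nearest of 229 TES regions were Pdcd6ip (1.625 points over 4 levels), Phlda1 (2.25) and Zic5 (2.75). For Gphn, the nearest of 1041 gene bodies were Dpp6 (1.25 points), Spag16 (1.375) and Cntnap5c (1.625). Dpp6, for example, stood at 94.5% and 94.5% in DKO, against 70.5% and 75% in WT.

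The targeted genes had regions of their own. Mutyh stood at 40% and 45.5% across its gene body in Mutyh-/-, against 94.5% and 94.5% in WT, and at 46.5% and 40% in DKO, against 93.5% and 95% in WT. Ogg1 had a gain at its transcription end in Ogg1-/- only, with 86.5% and 91%, against 66% and 64% in WT. Methylation levels do not show directly whether a gene was deleted. Of 41 marker genes of hippocampal cell types, 7 had a CG region in Mutyh-/- (all losses, 3 of them astrocyte and 3 oligodendrocyte markers), 4 in Ogg1-/- (2 gains and 2 losses) and 4 in DKO (1 gain and 3 losses). These were 17.1%, 9.76% and 9.76% of the markers, against 6.28%, 5.26% and 6.33% of protein-coding genes. CHH regions were listed for 5, 2 and 3 markers in the same order of knockouts. These were 12.2%, 4.88% and 7.32% of the markers, against 5.5%, 7.02% and 3.17% of protein-coding genes. All were losses, as were at least 97.4% of the CHH regions of each feature and knockout over all genes. Whether the mix of cells had a part in the Gabra5 loss was not tested. Read depth per cytosine is unknown beyond the minimum used by the authors, so no counting interval is given for any level.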

How the data were processed

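Sodium bisulfite sequencing was performed on total hippocampal DNA from 2 replicates each of 4 genotypes. The authors aligned reads to GRCm38 and extracted methylation in the CG, CHG and CHH contexts with Bismark (0.22.3). FastQC is also named in the submitters' processing notes. Cytosines with coverage under 4 were removed. With HMST-Seq-Analyzer, regions were taken at TSS and TES (1 kb either side) and gene bodies, with at least 3 methylated sites at TSS and TES or 5 in gene bodies, at most 200 bp apart. Each of 2 knockout libraries was set against each of 2 WT libraries by Wilcoxon rank-sum test, and regions past a relative ratio of 0.1 in the same direction in all 4 pairs were kept. Whether sites without methylation entered the medians is not given in the sources used here, so no level is known to stand for all cytosines of its region.

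The deposited medians are a score between 1 and 2, made by the authors per region and library pair, taken here to be the methylated fraction plus 1 and converted to percent. A library's level is the mean of its 2 pair readings. The deposited relative ratio and p-value columns hold the authors' own comparisons and were not used. Relative ratios were computed from the medians. Knockout columns carry no genotype and took that of their table. The DKO table for CHG held no regions, and 8 CHG regions were listed in all.

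Groups follow the genotype labels. All 3 genes were named in every table, with list genes having a region and, for each region, the 3 nearest in level by mean absolute difference, leaving out predicted and RIKEN genes. The genes and lists were chosen with earlier results of these data known. Of 72 list symbols, 2 (Nlgn4l and Insyn2) had no match. Some list genes are counted but not reported here by name. The share of protein-coding genes with a region is the background. Annotation and sequences were RefSeq GRCm38.p6, read with pysam 0.24.0, and tables with Python 3.11.15, pandas 2.3.3 and numpy 2.4.6. The calculations were tested on simulated data. Alternatives were single library pairs, each library left out, same-numbered pairs only, and a relative ratio of 0.15.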

Additional observations from a re-analysis of the deposited data

Results flagged for a closer look

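Iqsec3, the gene of an exchange factor that binds gephyrin, was listed for its gene body in the CHH context with opposite signs in the single knockouts. It stood at 100% and 98.5% in Mutyh-/-, against 80% and 70.5% in WT, a difference of 24 points. It stood at 26% and 44.5% in Ogg1-/-, against 83.5% and 59% in WT, a difference of -36 points. All 4 library pairs moved up in Mutyh-/- and all 4 moved down in Ogg1-/-, as the deposit required of any listed region. The same 2 WT libraries were read in both tables, and they differed by more than the 5 points that are the median gap between WT libraries for CHH regions. The difference between the knockouts was not tested.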

How the results depend on the processing

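A region was deposited only where all 4 library pairs moved the same way. The 45 alternative values of the 5 regional differences are single pair differences or means of them. All were therefore bound to keep their direction, and did. With the SD taken as the root of the summed squares of the knockout and WT SDs, 39 moved by less than 1 SD. The 6 that moved further were single library pairs: -32 points at Gabra2 for pair 3, -26 and -16 at Gabra5 in Mutyh-/- for pairs 2 and 3, -26 at Gabra5 in DKO for pair 2, and 26 and 20 at Gphn for pairs 1 and 4. Leaving out 1 library at a time gave -25.5 to -20.5 points at Gabra2, -25.5 to -17 at Gabra5 in Mutyh-/-, -24 to -23 in Ogg1-/-, -21 to -16.5 in DKO, and 21 to 25.5 at Gphn. Pairing libraries of the same number as a block gave -18.5 points at Gabra2, -21.5 at Gabra5 in Mutyh-/-, -24 in Ogg1-/-, -16 in DKO and 23 at Gphn. The numbers pair libraries by name only, and no test was run on these values.

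With a relative ratio beyond 0.15 asked of all 4 pairs, 1 of the 5 regions remained, Gabra5 in Ogg1-/-. List genes with a CG region then numbered 1 in Ogg1-/- (Gabra5) and 0 in both other knockouts, and those with a CHH region 0 in all 3, since a stricter limit can only remove regions. The planned stricter limits on the p-values were not run, because the authors' p-value columns were not used. Depth is unknown, so the precision of a level beyond the spread of 2 libraries cannot be given.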

Other observations

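In promoter windows, Gabra2 and Gphn had more CpG sites than Gabra5, a count that depends on where each window lies. Only Gabra5 had a region at its start. In the RefSeq windows of 300 bases, Gphn had 42 CpG sites, Gabra2 had 25 and Gabra5 had 13, against a median of 7 over 32851 promoters. The Gabra5 window, chr7:57510010-57510309, ends shortly after the start of NM_001362161.1 but just upstream of the centre of the TSS region. It thus leaves out the 120 of 147 CpG sites of that region that lie downstream of the centre. The GC box GGGCGG, searched on both strands, was found 2 times at Gabra2, 1 time at Gphn and 0 times at Gabra5, and 35.7% of all promoters held it. These windows are descriptions of sequence only.

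Genes of molybdenum cofactor use, the other function of gephyrin, were on the list too. Aox1, an aldehyde oxidase that carries the cofactor, stood at 30% and 28% at its TSS in Mutyh-/-, against 44% and 47.5% in WT. Glra4, a glycine receptor subunit gene, stood at 71% and 78.5% across its gene body in Mutyh-/-, against 92.5% and 100% in WT. Gphn itself had no region in that knockout.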
